A study of Homo sapiens with 6 samples.

Results

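RNA was sequenced from 5637, an established human bladder cancer cell line, with 3 libraries carrying the label siYTHDC1 and 3 the label siNC, the control group, all grown in the same medium. YTHDC1 encodes a nuclear reader of N6-methyladenosine in RNA, and the label siYTHDC1 was read as its silencing. The labels mention transfection, infection and a plasmid without saying which reagent the cells of either group received. The genes described here are 45 genes of oxidative stress defence, taken by symbol from 61860 rows of gene counts: NRF2 and its inhibitor, NRF2 targets, and genes of glutathione, thioredoxin, peroxiredoxin, superoxide, NADPH and ferritin biology. All 45 were found, and all 45 passed the filter on low counts that left 17372 genes for testing.

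NRF2, the protein of NFE2L2, is a transcription factor that KEAP1 binds and hands to a ubiquitin ligase for degradation. Oxidants and electrophiles modify KEAP1, NRF2 then accumulates and, paired with a small MAF protein, binds antioxidant response elements near genes for glutathione synthesis, quinone reduction and NADPH production. Glutathione and thioredoxin are the main thiol reductants of the cell, both are recharged with NADPH, and both feed enzymes that remove peroxides.

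Library totals were between 33223480 and 34858457 counts in siYTHDC1 and between 34628360 and 35607577 counts in siNC. The YTHDC1 row itself did not separate the groups, with 161, 18 and 14 counts in the siYTHDC1 libraries and 50, 786 and 55 counts in the siNC libraries. On the log2 scale YTHDC1 was fitted at -2.20 ± 0.69 (SE; adjusted p = 0.00864 with edgeR) and, without siNC replicate 2, at 0.31 (adjusted p = 0.691 with edgeR), so the directions below go by the labels alone, siYTHDC1 against siNC. Of 11 urothelial and epithelial markers 9 had over 10 counts in every library, among them KRT5, KRT7 and GATA3, while the uroplakin row UPK3A had at most 5 counts. The summed level of the 11 was 6227 to 6343 CPM (counts per 1000000) in siYTHDC1 and 10825 to 10969 CPM in siNC. The list did not move as 1 set: KRT5, KRT7, KRT8, KRT18, KRT19 and GATA3 were lower in siYTHDC1. EPCAM and TP63 were higher, by 0.14 and 0.17 on the log2 scale (adjusted p = 0.000375 and 8.78e-05 with edgeR). CDH1 and UPK2 were not called. Among the immune markers CD3E and CD68 were at 0 in every library, and the list summed to 4.73 to 6.51 CPM in siYTHDC1 and 6.58 to 8.01 CPM in siNC. Nearly all of that sum was CD14, with 157 to 225 counts in siYTHDC1 and 227 to 278 counts in siNC (log2 fold change -0.37; adjusted p = 0.0347 with edgeR). The 7 fibroblast markers summed to 93.5 to 99.0 CPM in siYTHDC1 and 79.1 to 85.6 CPM in siNC, nearly all of it COL1A1, with DCN at 0. The 5 endothelial markers summed to 6.08 to 7.54 CPM in siYTHDC1 and 5.50 to 7.75 CPM in siNC, most of it PECAM1, and VWF, with 23 to 41 counts in siYTHDC1 and 26 to 90 counts in siNC, was called lower (adjusted p = 0.0293 with edgeR). The part of these markers in the results was not tested. In bulk RNA, fewer cells of a type and less RNA per cell cannot be told apart.

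The redox genes moved in both directions. In the libraries labelled siYTHDC1 16 of the 45 rose, 14 fell and 15 did not pass the test (edgeR's quasi-likelihood test, adjusted p under 0.05 over all 17372 genes). Called genes made up 66.7% of the 45 and 53.4% of all genes tested, with 35.6% against 26.3% higher and 31.1% against 27.1% lower. Among genes of at least 5 CPM, 29 of 41 members (70.7%) and 67.2% of all genes were called. The groups did not overlap in 35 of the 45 members (77.8%), beside 59.3% of all genes tested. That share was not taken among genes of at least 5 CPM, so the part of level in the difference was not tested. The median log2 fold change was 0.047 for the members and -4.1e-04 for all genes, and the median size was 0.21 for the members, 0.30 for all genes and 0.24 for genes of at least 5 CPM. A size of at least 0.5 was reached by 12 members (26.7%), against 29.7% of all genes. The members with the largest rises were AKR1C2, SOD2, AKR1C1 and CTH, and the largest fall was in the scarce GPX3. GPX3 passed the low-count filter through the siNC libraries only, the group in which it was higher. It is included in the 14 that fell, the 35 without overlap and the 12 of at least 0.5 in size.

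**Figure D1:**
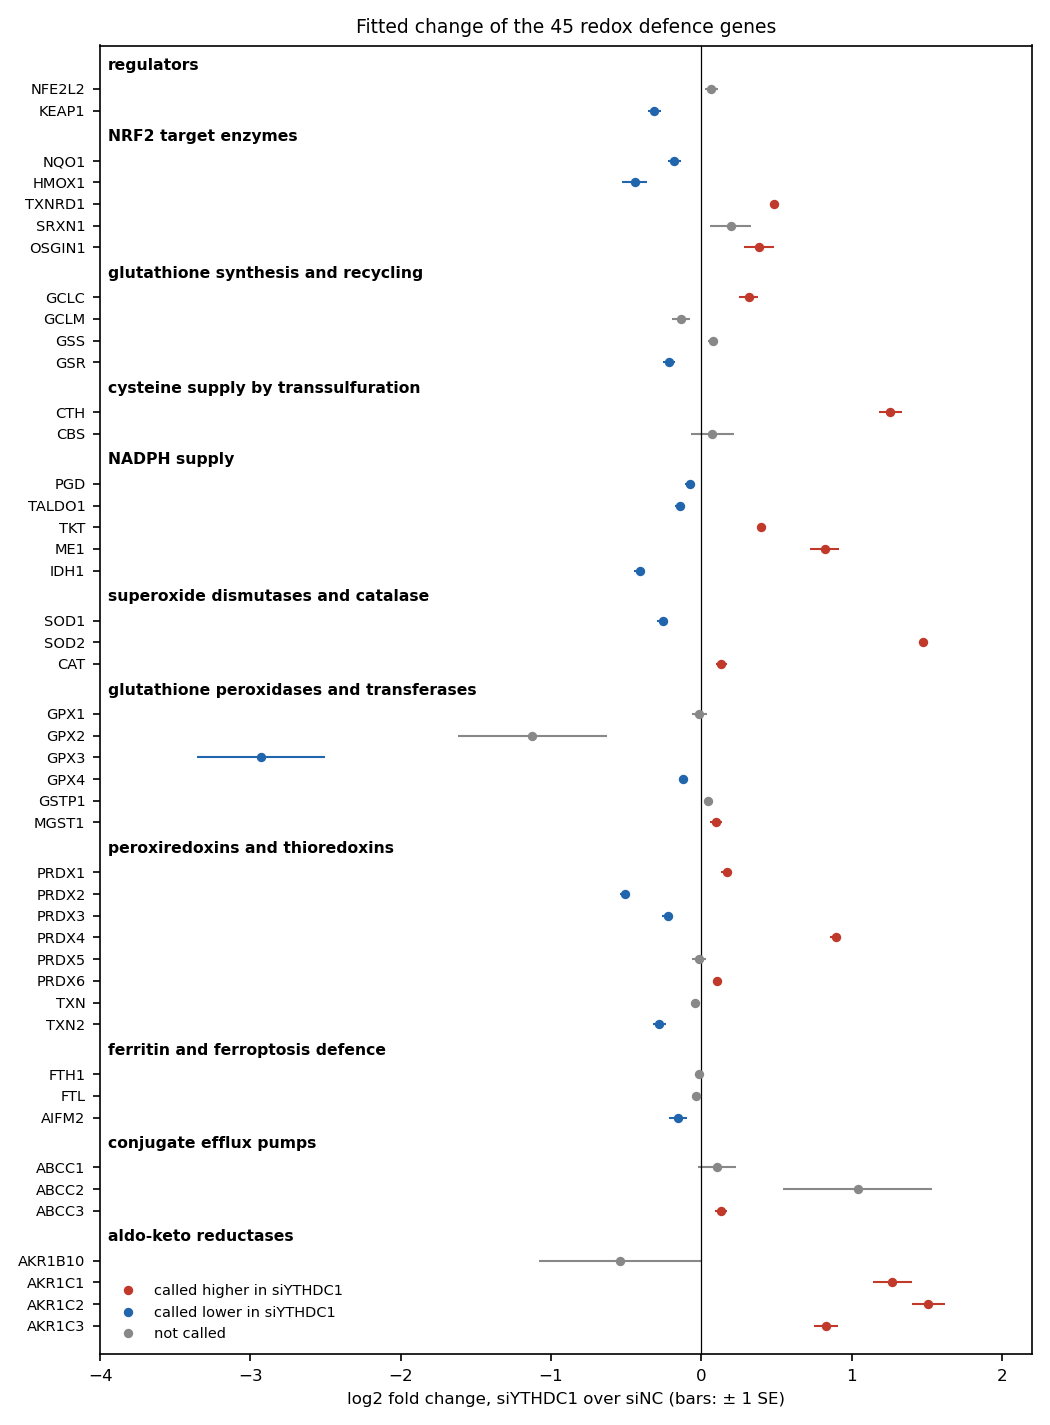
Fitted log2 fold change of each of the 45 genes, siYTHDC1 over siNC, with bars of 1 SE, grouped by role; red points were called higher, blue lower and grey were not called. The scale of the changes runs from -2.93 for GPX3 to 1.51 for AKR1C2, and most points lie within 0.5 of 0.

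In all, the 45 genes took 1.03% to 1.04% of the counts of each siYTHDC1 library and 0.932% to 0.943% of each siNC library. Without SOD2 the members summed to 8956 to 9114 CPM in siYTHDC1 and 8890 to 9027 CPM in siNC, ranges that overlap. Per kilobase of exon, the ferritin genes FTL and FTH1 were the most abundant members, at 1109 and 958.8 CPM per kilobase in siYTHDC1, against 1137 and 968.5 in siNC. GSTP1, TXN, PRDX5 and GPX4 followed in both groups, and GPX3, ABCC2, GPX2 and AKR1B10 lay under 0.6 CPM per kilobase in both.

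**Figure D2:**
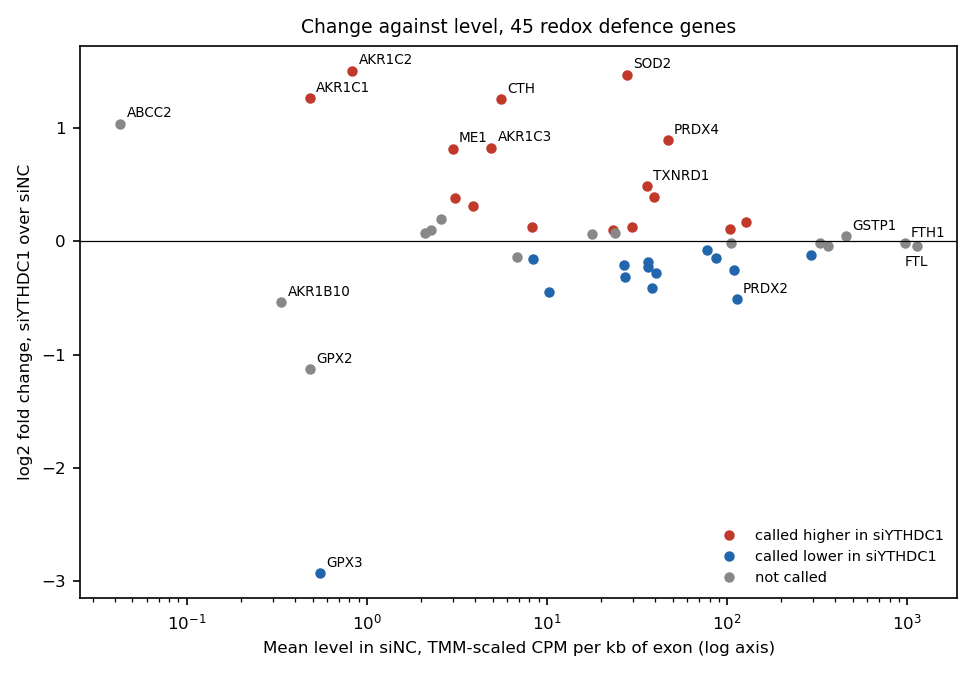
Log2 fold change (vertical axis) against the mean siNC level in CPM per kilobase of exon (horizontal log axis) for the 45 genes, coloured by call. The abundant ferritin genes, GSTP1 and GPX4 lie within 0.15 of 0, and the members with changes of at least 1 in size, other than SOD2 and CTH, are at the low end of the axis.

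Of the regulators, the KEAP1 transcript fell and that of NFE2L2 did not pass the test. NFE2L2 (ENSG00000116044, chr2:177227595-177392697) had 3700, 3645 and 4048 counts in the siYTHDC1 libraries, against 3835, 3606 and 3651 counts in the siNC libraries. The groups overlap, and its log2 fold change was 0.067 ± 0.042 (SE; adjusted p = 0.186 with edgeR). KEAP1 (ENSG00000079999, chr19:10486120-10503741), the sensor and adaptor that targets NRF2 for destruction, had 3018, 2707 and 2689 counts in the siYTHDC1 libraries, against 3504, 3595 and 3560 counts in the siNC libraries. Every siYTHDC1 library lay below every siNC library, at 82.1 ± 3.97 CPM in siYTHDC1 and 102 ± 2.79 CPM in siNC (SD, n = 3 each). The log2 fold change of KEAP1 was -0.31 ± 0.044 (SE; adjusted p = 7.26e-07 with edgeR). The ratio of KEAP1 to NFE2L2 CPM was 0.816, 0.743 and 0.664 in the siYTHDC1 libraries and 0.914, 0.997 and 0.975 in the siNC libraries. An exact 2-sided permutation test of this ratio, chosen after the values were seen, gave p = 0.1, the smallest that 3 against 3 allows. Of the exonic bases of NFE2L2, 17.6% lie under exons of other genes on the same strand, so reads there may have been discarded or shared in counting.

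Targets that are commonly read as markers of NRF2 activity went opposite ways. NQO1, the quinone reductase, had 3560, 3389 and 3780 counts in the siYTHDC1 libraries, against 4235, 4101 and 4047 counts in the siNC libraries, a fall with a log2 fold change of -0.18 ± 0.04 (SE; adjusted p = 0.000476 with edgeR). HMOX1, the inducible heme oxygenase, had 712, 579 and 566 counts in the siYTHDC1 libraries, against 836, 887 and 848 counts in the siNC libraries. HMOX1 fell, at 18.1 ± 2.02 CPM in siYTHDC1 and 24.6 ± 1.07 CPM in siNC (SD, n = 3 each), 1.36-fold lower in siYTHDC1 (edgeR adjusted p = 6.1e-05). TXNRD1, the cytosolic thioredoxin reductase and a selenoprotein, had 11577, 11163 and 11681 counts in the siYTHDC1 libraries, against 8733, 8338 and 7985 counts in the siNC libraries. All 3 siYTHDC1 libraries were above all siNC libraries, and TXNRD1 rose 1.40-fold (log2 fold change 0.49 ± 0.031, SE; adjusted p = 2.66e-13 with edgeR). OSGIN1, an oxidative stress-induced growth inhibitor, also rose, with 531, 468 and 430 counts in the siYTHDC1 libraries, against 356, 397 and 363 counts in the siNC libraries (log2 fold change 0.38 ± 0.10, SE; adjusted p = 0.00209 with edgeR). SRXN1, the sulfiredoxin that repairs over-oxidised peroxiredoxins, had 293, 306 and 220 counts in the siYTHDC1 libraries, against 238, 250 and 242 counts in the siNC libraries and, with overlapping groups, did not pass (edgeR adjusted p = 0.232). Without siYTHDC1 replicate 3 its log2 fold change was 0.33 and was called (adjusted p = 0.0426 with edgeR), while the other fits without 1 library reached 0.667. Its level is uncertain, since 84.95% of its exonic bases lie under a same-strand neighbour.

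The promoter windows of these genes, taken from RefSeq (GRCh38.p14, 250 bases before to 50 after each start), were searched on both strands for TGACNNNGC, the core of the antioxidant response element. Where the middle letters read TCA, the core contains TGACTCA, the site of AP-1 factors. Windows were held for 34 of the 45 members, and 11 of the 34 (32.4%) had a match, against 16.1% of all 27305 genes in the table. A gene could have several windows. Counted by window, 12 of 49 (24.49%) of the members and 4687 of 35116 (13.35%) of all had a match. Known NRF2 targets are part of the 45 by choice, so the difference is a description and was not tested. A match was found for 3 of 13 members that rose, 4 of 10 that fell and 4 of 11 that were not called. KEAP1, TXNRD1 and ME1 had further matches, and these and the matches of CBS, PGD, GPX2 and MGST1 are not shown. The stretches below are a selection, each the 9-base core in capitals with 10 bases on either side. They are shown so that the cores of members that rose, fell or were not called can be set side by side.
ME1: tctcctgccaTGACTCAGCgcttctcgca
GSTP1: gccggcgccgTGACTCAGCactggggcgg
AIFM2: gggcggggcgTGACTCAGCactcgtgctg
KEAP1: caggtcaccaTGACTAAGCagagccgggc
GCLM: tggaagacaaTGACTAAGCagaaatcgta
TXNRD1: acacgggctaTGACTTCGCtgttgtcacc
IDH1: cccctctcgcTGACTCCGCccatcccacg

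The core TGACTCAGC occurred in the windows of ME1 (chr6:83431170-83431198, minus strand), which rose, AIFM2 (chr10:70132829-70132857, plus strand), which fell, and GSTP1 (chr11:67583736-67583764, plus strand), which was not called. KEAP1 (chr19:10502784-10502812, plus strand) and GCLM (chr1:93909446-93909474, plus strand) shared the core TGACTAAGC, KEAP1 having fallen and GCLM not having passed. The stretches of TXNRD1 (chr12:104215670-104215698, plus strand) and IDH1 (chr2:208255196-208255224, minus strand) belong to a gene that rose and a gene that fell. A match is a description of letters in a window, and a window without one says nothing of the factor.

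Among the genes of glutathione synthesis, the catalytic subunit rose, the reductase fell and the others were not called. GCLC, the catalytic subunit of glutamate-cysteine ligase, had 1389, 1391 and 1481 counts in the siYTHDC1 libraries, against 1258, 1167 and 1071 counts in the siNC libraries, and its log2 fold change was 0.31 ± 0.064 (SE; adjusted p = 0.000148 with edgeR). GCLM, the modifier subunit that lowers the enzyme's demand for glutamate, had 1184, 1092 and 1171 counts in the siYTHDC1 libraries, against 1300, 1246 and 1308 counts in the siNC libraries. The groups of GCLM do not overlap, but its log2 fold change of -0.13 ± 0.061 (SE) did not pass (edgeR adjusted p = 0.0675). The ratio of GCLC to GCLM CPM, chosen after the values were seen, was 1.24 ± 0.0557 in siYTHDC1 and 0.908 ± 0.0785 in siNC (SD, n = 3 each; exact 2-sided permutation p = 0.1, the smallest possible). GSS, glutathione synthetase, had 5443, 5071 and 5396 counts in the siYTHDC1 libraries, against 5141, 5145 and 5077 counts in the siNC libraries, without overlap in CPM, and did not pass (edgeR adjusted p = 0.0577). With another scaling or filter it did, the lowest edgeR adjusted p being 0.032 over 15 alternatives. GSR, glutathione reductase, which returns oxidised glutathione to its reduced form with NADPH, fell with 3085, 2894 and 2987 counts in the siYTHDC1 libraries, against 3611, 3434 and 3546 counts in the siNC libraries (log2 fold change -0.21 ± 0.04, SE; adjusted p = 5.37e-05 with edgeR).

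Cysteine, the limiting amino acid of glutathione, can be made from methionine by CBS and CTH. CTH (ENSG00000116761, chr1:70411218-70439851), cystathionine gamma-lyase, had 1142, 1035 and 1134 counts in the siYTHDC1 libraries, against 462, 446 and 503 counts in the siNC libraries. It was 2.39-fold higher in siYTHDC1, at 32.3 ± 1.09 CPM in siYTHDC1 and 13.5 ± 0.888 CPM in siNC (SD, n = 3 each), with an edgeR adjusted p of 1.47e-13. CBS (ENSG00000160200, chr21:43053191-43076943), cystathionine beta-synthase, had 430, 482 and 621 counts in the siYTHDC1 libraries, against 652, 487 and 350 counts in the siNC libraries, and its groups overlap (log2 fold change 0.074 ± 0.14, SE; adjusted p = 0.698 with edgeR). The CBS row is uncertain because 52.3% of its 75-base words recur in CBSL, an annotated copy on the same chromosome. CBSL had 274, 55 and 125 counts in the siYTHDC1 libraries, against 8, 14 and 238 counts in the siNC libraries. It held 38.9%, 10.2% and 16.8% of the CBS and CBSL counts in siYTHDC1 and 1.21%, 2.79% and 40.5% in siNC, so the split between the copies varied widely among libraries of 1 group. Added together the rows had 704, 537 and 746 counts in siYTHDC1 and 660, 501 and 588 counts in siNC, fitted at 0.21 ± 0.10 on the log2 scale (SE; adjusted p = 0.0837 with edgeR), which did not pass either.

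**Figure D3:**
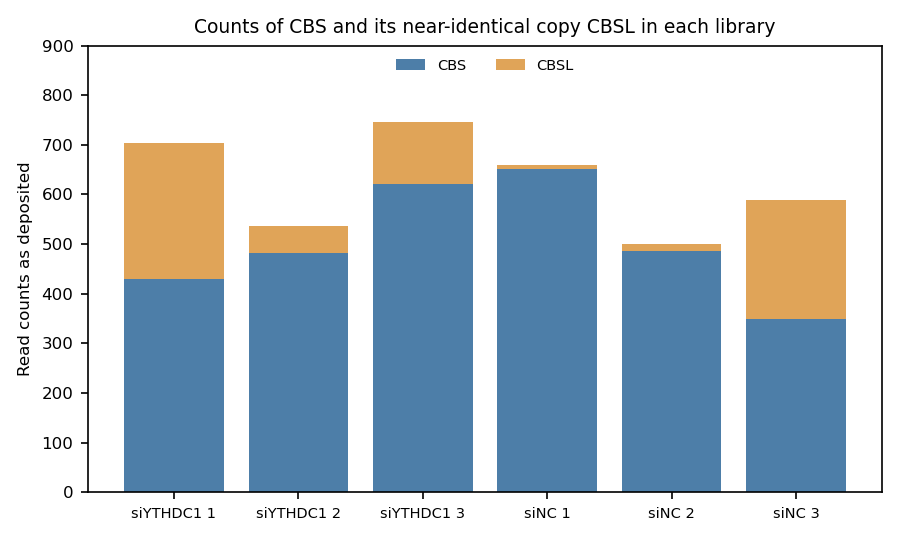
Stacked bars of the deposited read counts of CBS (blue) and its near-identical copy CBSL (orange) in each of the 6 libraries. CBSL holds from 1.21% of the pair in siNC replicate 1 to 40.5% in siNC replicate 3, while the height of the whole bar runs only from 501 to 746 counts.

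The 5 members grouped under NADPH supply, TKT and TALDO1 of the non-oxidative pentose phosphate branch among them, were all called, 2 higher and 3 lower. Over all genes tested 53.4% were called, and 67.2% of those of at least 5 CPM. ME1, the cytosolic malic enzyme, had 601, 634 and 589 counts in the siYTHDC1 libraries, against 394, 313 and 348 counts in the siNC libraries and was 1.77-fold higher (log2 fold change 0.82 ± 0.096, SE; adjusted p = 4.45e-08 with edgeR). TKT, transketolase of the non-oxidative pentose phosphate branch, had 17112, 16644 and 16754 counts in the siYTHDC1 libraries, against 13157, 12936 and 13070 counts in the siNC libraries, with a log2 fold change of 0.40 ± 0.026 (SE; adjusted p = 6.35e-13 with edgeR). IDH1, the cytosolic NADP-dependent isocitrate dehydrogenase, had 4694, 4405 and 4932 counts in the siYTHDC1 libraries, against 6338, 6302 and 6346 counts in the siNC libraries. IDH1 fell, at 137 ± 6.34 CPM in siYTHDC1 and 182 ± 2.41 CPM in siNC (SD, n = 3 each), 1.33-fold lower in siYTHDC1 (edgeR adjusted p = 2.91e-10). TALDO1, transaldolase, which works beside TKT, fell with 7800, 7920 and 8521 counts in the siYTHDC1 libraries, against 9392, 9161 and 8750 counts in the siNC libraries (log2 fold change -0.14 ± 0.036, SE; adjusted p = 0.00131 with edgeR). PGD, 6-phosphogluconate dehydrogenase of the oxidative branch, fell by 0.078 on the log2 scale (edgeR adjusted p = 0.0386). This call did not hold in 4 of 6 fits that each left out a library, those without siYTHDC1 replicate 1 or 2 or siNC replicate 1 or 2 (edgeR adjusted p from 0.0243 to 0.177 over the 6). TKT and TALDO1, enzymes of the same branch, were called in opposite directions.

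The superoxide dismutases went opposite ways. SOD2 (ENSG00000112096, chr6:159669057-159745186), the manganese enzyme of mitochondria, had 45004, 42507 and 42423 counts in the siYTHDC1 libraries, against 16257, 15640 and 15806 counts in the siNC libraries. At 1268 ± 25.3 CPM in siYTHDC1 and 457 ± 2.56 CPM in siNC (SD, n = 3 each) it was 2.78-fold higher in siYTHDC1 (log2 fold change 1.47 ± 0.024, SE; adjusted p = 3.81e-26 with edgeR). In CPM without regard to length it had the highest level of the members that rose. SOD1, the cytosolic copper-zinc enzyme, had 6771, 6208 and 5917 counts in the siYTHDC1 libraries, against 7919, 7492 and 7598 counts in the siNC libraries and fell (log2 fold change -0.26 ± 0.037, SE; adjusted p = 1.17e-06 with edgeR). The ratio of SOD2 to SOD1 CPM, chosen after the values were seen, was 6.65, 6.85 and 7.17 in the siYTHDC1 libraries and 2.05, 2.09 and 2.08 in the siNC libraries (exact 2-sided permutation p = 0.1, the smallest possible). CAT, the peroxisomal catalase, had 4047, 3919 and 4020 counts in the siYTHDC1 libraries, against 3799, 3653 and 3703 counts in the siNC libraries, a small rise with a log2 fold change of 0.13 ± 0.037 (SE; adjusted p = 0.0038 with edgeR).

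**Figure D4:**
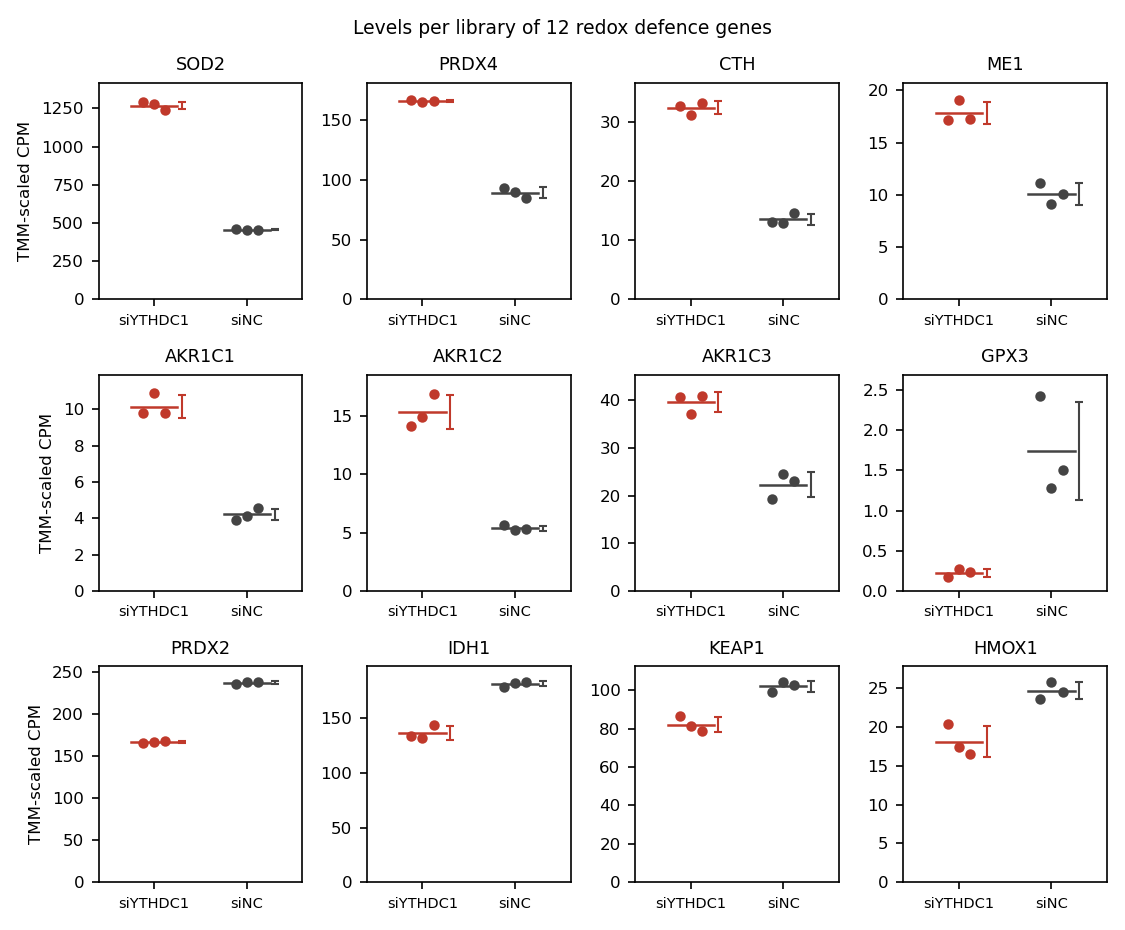
TMM-scaled CPM of 12 members chosen after their values were seen, each panel on its own axis from 0, with siYTHDC1 (red) left of siNC (dark grey); points are libraries, lines are means and bars beside them are 1 SD. The groups do not overlap in any of the 12, which may follow from that choice. The share without overlap was 77.8% among all members and 59.3% among all genes tested. Of the 12, SOD2 has the highest level, 1268 CPM in siYTHDC1 and 457 CPM in siNC on average.

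Among glutathione peroxidases and transferases, the abundant members differed by little. GPX4, the selenoprotein that reduces lipid peroxides in membranes, had 19009, 18326 and 18253 counts in the siYTHDC1 libraries, against 21209, 20120 and 20387 counts in the siNC libraries, a fall with a log2 fold change of -0.12 ± 0.025 (SE; adjusted p = 0.000165 with edgeR). GPX1, the most widely expressed cytosolic peroxidase, had 5411, 5249 and 4586 counts in the siYTHDC1 libraries, against 5588, 5167 and 4938 counts in the siNC libraries, and its groups overlap (log2 fold change -0.013 ± 0.047, SE; adjusted p = 0.844 with edgeR). GSTP1, a glutathione S-transferase, had 31111, 30307 and 31073 counts in the siYTHDC1 libraries, against 31040, 30236 and 30046 counts in the siNC libraries. The GSTP1 groups do not overlap, yet the difference of 0.047 ± 0.022 (SE) did not pass in the fit reported (edgeR adjusted p = 0.0803), while it did in 5 of 15 alternatives (lowest adjusted p 0.0328). MGST1, a membrane-bound transferase, was called higher with 6487, 5849 and 6620 counts in the siYTHDC1 libraries, against 6516, 5593 and 5941 counts in the siNC libraries (log2 fold change 0.099 ± 0.041, SE; adjusted p = 0.0455 with edgeR), although its groups overlap. Its call was lost in the fits without siYTHDC1 replicate 1 or 3 or siNC replicate 2 or 3 (edgeR adjusted p from 0.00849 to 0.33 over the 6).

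The secreted and the epithelial peroxidases were scarce. GPX3, the extracellular glutathione peroxidase, had 6, 9 and 8 counts in the siYTHDC1 libraries, against 86, 44 and 52 counts in the siNC libraries. It was 7.62-fold lower in siYTHDC1, at 0.225 ± 0.0498 CPM in siYTHDC1 and 1.74 ± 0.610 CPM in siNC (SD, n = 3 each), with a log2 fold change of -2.93 ± 0.43 (SE; adjusted p = 1.57e-06 with edgeR). GPX3 passed the low-count filter through the siNC libraries only, so that it could be tested at all rested on the group in which it was higher. Its mean is under 1 CPM, and it is given here after its values were seen. GPX2, a peroxidase of epithelia, had 10, 6 and 18 counts in the siYTHDC1 libraries, against 31, 22 and 23 counts in the siNC libraries. The GPX2 groups do not overlap, but the log2 fold change of -1.12 ± 0.50 (SE) did not pass (edgeR adjusted p = 0.0588). GPX2 passed the filter on 3 siNC libraries and 1 siYTHDC1 library, so its entry into the test also rested mainly on siNC. With siYTHDC1 replicate 3 left out GPX2 was at -1.62 (edgeR adjusted p = 0.026, others reaching 0.223).

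Peroxiredoxins, the thiol enzymes that take most of the cell's hydrogen peroxide, split into 3 that rose, 2 that fell and 1 that was not called. Among all genes of at least 5 CPM 67.2% were called, in either direction. PRDX4 (ENSG00000123131, chrX:23664262-23686399), the peroxiredoxin of the endoplasmic reticulum, had 5808, 5487 and 5676 counts in the siYTHDC1 libraries, against 3303, 3092 and 2924 counts in the siNC libraries. It was 1.86-fold higher in siYTHDC1, at 166 ± 0.802 CPM in siYTHDC1 and 89.2 ± 4.43 CPM in siNC (SD, n = 3 each; log2 fold change 0.89 ± 0.039, SE; adjusted p = 9.5e-17 with edgeR). PRDX2, its cytosolic relative, had 5763, 5542 and 5733 counts in the siYTHDC1 libraries, against 8311, 8170 and 8241 counts in the siNC libraries and was 1.42-fold lower in siYTHDC1 (edgeR adjusted p = 1.49e-13). PRDX3, the mitochondrial form, had 3718, 3415 and 3781 counts in the siYTHDC1 libraries, against 4327, 4357 and 4316 counts in the siNC libraries, a fall with a log2 fold change of -0.22 ± 0.039 (SE; adjusted p = 1.99e-05 with edgeR). PRDX1 and PRDX6, both mainly cytosolic, rose by 0.17 ± 0.035 and 0.11 ± 0.03 on the log2 scale (SE; edgeR adjusted p = 0.000172 and 0.00421). PRDX5, found in several compartments, had 11291, 9900 and 8727 counts in the siYTHDC1 libraries, against 10513, 10158 and 10134 counts in the siNC libraries, and was not called, its siYTHDC1 CPM lying on both sides of the siNC range (edgeR adjusted p = 0.823).

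The thioredoxins among the members were lower or not called. TXN2, the mitochondrial thioredoxin, had 2330, 2318 and 2284 counts in the siYTHDC1 libraries, against 2919, 2803 and 2870 counts in the siNC libraries, and fell with a log2 fold change of -0.28 ± 0.044 (SE; adjusted p = 4.11e-06 with edgeR). TXN, the cytosolic thioredoxin and substrate of TXNRD1, had 401 ± 6.99 CPM in siYTHDC1 and 413 ± 1.92 CPM in siNC (SD, n = 3 each) and did not pass (edgeR adjusted p = 0.183). Of the members named here as mitochondrial, PRDX3 and TXN2 were lower in siYTHDC1 and SOD2 was higher. PRDX5, found in several compartments, was not called, and hydrogen peroxide was not measured.

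Neither ferritin transcript was called, and AIFM2 fell. FTH1, the heavy chain that oxidises and stores iron, had 66532, 65186 and 67672 counts in the siYTHDC1 libraries, against 67475, 70279 and 67611 counts in the siNC libraries, with overlapping groups (log2 fold change -0.015 ± 0.022, SE; adjusted p = 0.616 with edgeR). FTL, the light chain, had 32468, 31851 and 35404 counts in the siYTHDC1 libraries, against 34920, 34967 and 34414 counts in the siNC libraries, again with overlap (log2 fold change -0.036 ± 0.029, SE; adjusted p = 0.295 with edgeR). Without siYTHDC1 replicate 3, FTL was called lower at -0.085 on the log2 scale (edgeR adjusted p = 0.000778, others reaching 0.945). Ferritin is largely set at translation through iron-responsive elements, which counts do not show, and 62.4% of the exonic bases of FTH1 lie under exons of a neighbour on the other strand. AIFM2, also called FSP1, an oxidoreductase that keeps ubiquinone reduced and limits lipid peroxidation beside GPX4, had 1297, 1381 and 1256 counts in the siYTHDC1 libraries, against 1489, 1472 and 1516 counts in the siNC libraries. Its fall, with a log2 fold change of -0.16 ± 0.06 (SE; adjusted p = 0.0295 with edgeR), was lost in the fits without siYTHDC1 replicate 1 or 3 or siNC replicate 2 or 3 (edgeR adjusted p from 0.00867 to 0.108 over the 6).

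Of the pumps that export glutathione conjugates, ABCC3 alone was called. It had 3050, 2899 and 2921 counts in the siYTHDC1 libraries, against 2710, 2775 and 2772 counts in the siNC libraries, a rise with a log2 fold change of 0.13 ± 0.042 (SE; adjusted p = 0.0107 with edgeR) that was lost without siNC replicate 1 (edgeR adjusted p = 0.077, the others from 0.011). ABCC1 had 527, 576 and 804 counts in the siYTHDC1 libraries, against 765, 502 and 546 counts in the siNC libraries, and the libraries of each group spread more widely than the groups differ (edgeR adjusted p = 0.525). ABCC2 was scarce, with 16, 20 and 35 counts in the siYTHDC1 libraries, against 10, 11 and 14 counts in the siNC libraries. Its groups do not overlap, but the log2 fold change of 1.04 ± 0.50 (SE) did not pass (edgeR adjusted p = 0.0795).

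The aldo-keto reductases of the AKR1C cluster on chromosome 10 rose together. These enzymes reduce steroids, prostaglandins and lipid aldehydes with NADPH and are strongly NRF2-inducible in human cells. AKR1C2 had 493, 497 and 578 counts in the siYTHDC1 libraries, against 199, 181 and 182 counts in the siNC libraries and was 2.85-fold higher (log2 fold change 1.51 ± 0.11, SE; adjusted p = 4.64e-12 with edgeR). AKR1C1 had 342, 363 and 335 counts in the siYTHDC1 libraries, against 139, 143 and 158 counts in the siNC libraries and was 2.41-fold higher (log2 fold change 1.27 ± 0.13, SE; adjusted p = 3.53e-09 with edgeR). AKR1C3, which makes active androgens and prostaglandin F, had 1422, 1236 and 1400 counts in the siYTHDC1 libraries, against 686, 844 and 796 counts in the siNC libraries, a log2 fold change of 0.83 ± 0.077 (SE; adjusted p = 5.98e-10 with edgeR). Groups did not overlap in any of the 3, beside 59.3% of all genes tested. AKR1B10, on chromosome 7, had 11, 23 and 7 counts in the siYTHDC1 libraries, against 11, 19 and 31 counts in the siNC libraries and was not called, with overlapping groups (log2 fold change -0.54 ± 0.54, SE; adjusted p = 0.423 with edgeR).

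AKR1C1 and AKR1C2 are not fully separate measurements. Of the 75-base words of AKR1C1, 21.7% recur in AKR1C2, and of those of AKR1C2, 29.1% recur in AKR1C1, so counting may have split or discarded their reads. The ratio of AKR1C2 to AKR1C1 CPM was 1.44, 1.37 and 1.73 in the siYTHDC1 libraries and 1.43, 1.27 and 1.15 in the siNC libraries, which overlap (exact 2-sided permutation p = 0.2, a ratio chosen after the values were seen). AKR1C3 shares 2.49% of its words with AKR1C2. The RefSeq windows of these genes had 0 matches to TGACNNNGC. Their likeness extends upstream: over the 250 bases before the start, AKR1C2 was identical to AKR1C1 at 245 of 246 aligned bases (99.6%), and AKR1C3, at the first of its starts in the table, at 185 of 241 (76.8%). The farthest 84 bases of each window are shown to let the near-copies be seen, with capitals marking, within the aligned part, bases that differ from AKR1C1 or are absent from it. Bases outside the alignment are in lower case and were not compared.
AKR1C1: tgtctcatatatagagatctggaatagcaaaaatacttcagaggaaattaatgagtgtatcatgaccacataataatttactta
AKR1C2: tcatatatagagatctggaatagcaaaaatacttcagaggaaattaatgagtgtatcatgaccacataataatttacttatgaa
AKR1C3: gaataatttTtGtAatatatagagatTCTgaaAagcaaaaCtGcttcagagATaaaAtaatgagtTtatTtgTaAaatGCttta

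These lie at chr10:4963165-4963248 (plus strand) for AKR1C1, chr10:5004024-5004107 (minus strand) for AKR1C2 and chr10:5048531-5048614 (plus strand) for AKR1C3. In this stretch AKR1C2 and AKR1C1 differ at 0 of 80 aligned bases. AKR1C3 differs from AKR1C1 at 17 of 75, with 1 further base absent from AKR1C1. Another 5 bases of AKR1C1 are missing from AKR1C3, which capitals cannot mark.

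A wider list of 86 redox genes outside the 45 had 27 of 80 tested genes higher, 25 lower and 28 not called, with a median log2 fold change of 0.021. Over all genes tested 26.3% were higher and 27.1% lower, the background for this count and for those by class that follow. Among partners and rivals of NRF2, 8 of 11 rose and 2 fell. NFE2L1, a relative of NRF2 that drives proteasome genes, had 20186, 18912 and 18882 counts in the siYTHDC1 libraries, against 10591, 10990 and 11106 counts in the siNC libraries and rose 1.81-fold (edgeR adjusted p = 6.42e-19). BACH1, a repressor that competes with NRF2 for response elements and holds down HMOX1, had 7616, 7614 and 8019 counts in the siYTHDC1 libraries, against 4777, 4571 and 4676 counts in the siNC libraries (log2 fold change 0.76 ± 0.035, SE; adjusted p = 2.29e-16 with edgeR). MAFF, a small MAF partner of both, rose by 0.73 ± 0.062 on the log2 scale (SE; edgeR adjusted p = 9.07e-11).

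In cystine import and glutathione turnover, 1 of 6 tested genes rose and 3 fell. SLC7A11, the cystine importer xCT, had 1309, 1281 and 1308 counts in the siYTHDC1 libraries, against 687, 578 and 571 counts in the siNC libraries and was 2.17-fold higher (edgeR adjusted p = 6.38e-13). Its heavy chain SLC3A2, far more abundant, fell by 0.21 on the log2 scale (edgeR adjusted p = 2.04e-08), and CHAC2, which degrades glutathione, by 0.38 (edgeR adjusted p = 0.0106). The CHAC2 call was lost without siYTHDC1 replicate 3 (edgeR adjusted p = 0.054) or siNC replicate 1 (edgeR adjusted p = 0.0577).

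**Figure D5:**
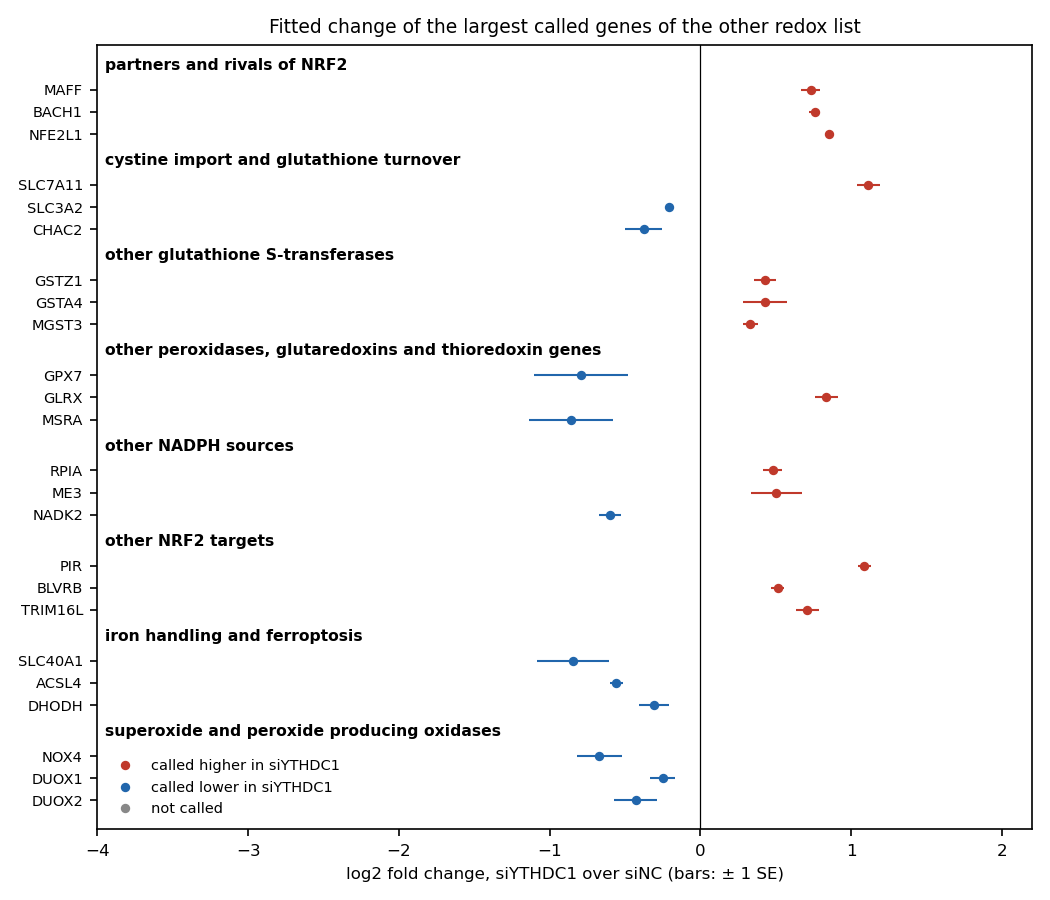
Fitted log2 fold change with bars of 1 SE, siYTHDC1 over siNC, of up to 3 called genes with the largest change in each of 8 classes of redox genes outside the 45; red points are higher and blue points lower. The oxidases and iron genes drawn lie below 0, and the partners of NRF2 and other NRF2 targets drawn lie above 0.

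Other NRF2 targets were also mixed, with 5 of 13 higher and 4 lower. PIR, an iron-binding nuclear protein, had 4524, 4339 and 4550 counts in the siYTHDC1 libraries, against 2111, 2215 and 2107 counts in the siNC libraries, a rise of 1.09 ± 0.042 on the log2 scale (SE; edgeR adjusted p = 5.1e-18). TRIM16L and the biliverdin reductase gene BLVRB rose by 0.71 ± 0.076 and 0.51 ± 0.043 (SE; edgeR adjusted p = 7.78e-09 and 6.94e-11). The TRIM16L row is uncertain, since 26.7% of its 75-base words recur in TRIM16. BLVRB rose and HMOX1 fell, and a link between them was not tested.

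Of 10 other NADPH genes 5 rose and 2 fell. RPIA, a pentose phosphate isomerase, rose by 0.48 ± 0.064 and the malic enzyme ME3 by 0.50 ± 0.17 on the log2 scale (SE; edgeR adjusted p = 4.16e-07 and 0.0137). NADK2, the mitochondrial NAD kinase, fell by 0.60 (edgeR adjusted p = 1.01e-07). Of 10 tested glutathione S-transferases 4 rose and 1 fell, the largest rises being GSTZ1 (0.43 ± 0.073), GSTA4 (0.43 ± 0.15) and MGST3 (0.33 ± 0.049; SE, edgeR adjusted p = 1.36e-05, 0.0152 and 2.2e-06). ME3 lost its call without siNC replicate 1 (edgeR adjusted p = 0.058) and GSTA4 without siYTHDC1 replicate 3 (edgeR adjusted p = 0.131).

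Other peroxidases, glutaredoxins and thioredoxin genes rose in 2 and fell in 6 of 14. GLRX, the cytosolic glutaredoxin, rose by 0.83 ± 0.077 on the log2 scale (SE; edgeR adjusted p = 5.43e-10). MSRA, a methionine sulfoxide reductase, fell by 0.86 and GPX7, an endoplasmic reticulum peroxidase, by 0.79 (edgeR adjusted p = 0.0108 and 0.0343), both near 1 to 2 CPM. MSRA lost its call without siNC replicate 3 and GPX7 without siYTHDC1 replicate 2 or siNC replicate 1 or 3 (edgeR adjusted p up to 0.0942 and 0.162).

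Iron and ferroptosis genes rose in 2 and fell in 4 of 9 tested. ACSL4, which loads membranes with the polyunsaturated lipids that ferroptosis oxidises, had 2183, 2062 and 2136 counts in the siYTHDC1 libraries, against 3214, 3281 and 3086 counts in the siNC libraries, a fall of 0.56 on the log2 scale (edgeR adjusted p = 2.29e-11). SLC40A1, the iron exporter ferroportin, fell by 0.84 and DHODH by 0.30 (edgeR adjusted p = 0.00423 and 0.0116). SLC40A1 lost its call without siNC replicate 1 and DHODH without siYTHDC1 replicate 2 (edgeR adjusted p = 0.0521 and 0.096). Of 7 tested genes of the oxidases that make superoxide or peroxide 0 rose and 3 fell: NOX4 by 0.67, DUOX2 by 0.43 and DUOX1 by 0.25 on the log2 scale (edgeR adjusted p = 0.000406, 0.0123 and 0.0134). The DUOX2 call was lost without siNC replicate 2 or 3, and that of DUOX1 without siYTHDC1 replicate 1 or siNC replicate 1 or 3 (edgeR adjusted p up to 0.0768 and 0.066).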

How the data were processed

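RNA of 6 libraries of 5637 cells was sequenced. Per the labels' protocols, total RNA was made into libraries with a directional kit. The authors deposited raw counts per Ensembl gene, 1 column per library, with hg38 as the genome build named in the submitters' processing notes. Aligner, counting program, annotation release and strand setting were not given in the sources used here. Columns were matched to sample titles by group and number, although the S1 in the siYTHDC1 column names is not explained, and 0 columns were left unused. A name table matched 44 members by Ensembl identifier, and GENCODE release 29, also the source of positions, matched SOD2.

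Counts were tested with edgeR 4.0.16 in R 4.3.3 (quasi-likelihood, TMM scaling, default low-count filter, group as the only term, all 6 libraries), adjusted by Benjamini and Hochberg over 17372 genes. SE is the size of the log2 fold change divided by the root of F. Levels are TMM-scaled CPM. The test was tried on simulated data: of 99 and 98 genes changed by 0.5 and 1 on the log2 scale it recovered 85.9% and 89.8%, with 14 false calls among 17098 genes tested. Every simulated gene had the same biological coefficient of variation, 0.056, and nearly all were unchanged. In the real data 53.4% of genes were called and the spread differed between genes, so these rates do not carry over to the calls. The alternatives were other scalings, DESeq2 1.42.0, limma-voom (limma 3.58.1), other filters, leaving out each library and a replicate block. Shared exonic bases and 75-base words came from GENCODE release 29. The members and lists were chosen with earlier results of these data known. Full counts are given for NFE2L2, KEAP1 and up to 4 members per role with the largest change and at least 1 CPM, and up to 3 called genes per class of the wider list are named (by size of change, at least 1 CPM). The counts of NQO1, PRDX5, GPX2, GPX3, ABCC2 and AKR1B10 lie outside that rule (the last 4 average under 1 CPM). These, the ratios, the sum of CBS and CBSL and the 12 genes drawn by library were chosen after their values were seen. Nothing in the labels says that the libraries came from separate cultures, so p-values measure only the spread between them, which may be technical. The value of 1 immune marker is not reported here. No replicate pair agreed within counting noise: chi-square over degrees of freedom was 3.66 to 5.54.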

Additional observations from a re-analysis of the deposited data

How the results depend on the processing

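Over 15 alternatives the members called numbered 25 to 32, and 0 calls changed direction. The fits without 1 library gave 15 to 16 members higher and 12 to 15 lower, 25 to 28 higher and 20 to 24 lower in the wider list (related redox genes), and 8533 to 8960 genes called over all genes, against 9278 with all libraries. Over the fits without 1 library the members log2 fold change, median, ran from -0.024 without siNC replicate 3 to 0.058 without siYTHDC1 replicate 1, and with the stricter filter it was 0.062. Leaving out siNC replicate 2 and siYTHDC1 replicate 1 together, chosen after seeing the data because of their YTHDC1 counts, gave 14 higher and 11 lower and lost PGD, TALDO1, MGST1, PRDX6 and AIFM2. The YTHDC1 log2 fold change was -1.83 with limma-voom and ran from -4.17 without siYTHDC1 replicate 1 to 0.31 without siNC replicate 2, with -1.77 without siYTHDC1 replicate 2; DESeq2 gave it no adjusted p. With the replicate block the members called were again 16 higher and 14 lower, the same 30 genes; the numbers were not taken as pairs, since same-numbered libraries deviated together with r of -0.056, -0.052 and 0.038. GSTP1 passed with upper-quartile scaling, no scaling, DESeq2, limma-voom or the stricter filter, and GSS with upper-quartile scaling, no scaling or the stricter filter. Under the other edgeR scalings the median log2 fold change of all genes was 0.0017 to 0.0101. For the 69 genes followed singly, 981 of 1033 values kept their side of the threshold, 40 lost and 12 gained a call, and 0 called genes changed sign; the cause was not tested. The counts behind GPX2, GPX3, ABCC2 and AKR1B10 limit what could be detected.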
